A study of Mus musculus with 24 samples.

Results

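The genes described here are 9 targets of a pair of transcription systems that read the state of the actin cytoskeleton, 5 targets of YAP (Ccn1, Ccn2, Ankrd1, Amotl2 and Lats2) and 4 contractile targets of SRF (Acta2, Tagln, Cnn1 and Myl9). They were chosen by name, as the rows of the count table whose Entrez identifiers map to these mouse symbols, and all 9 were found among the 24454 genes of the table. The choice was made with earlier results of these data known. RNA was measured in explants of the organ of Corti (OC), the sensory epithelium of the cochlea with its adjoining tissue. The pups were C57BL/6N mice of both sexes, 5 days of age. After 24 h in medium, explants were kept for another 6 or 24 h without drugs (CTRL), with 50 µM gentamicin (GM), an aminoglycoside antibiotic toxic to hair cells, with 10 µM of the PPAR-γ agonist pioglitazone (PIO), or with gentamicin and pioglitazone together (PIO+GM). Each of these 8 groups comprised 3 libraries, 24 in all, and each library was made from 6 pooled OCs. The strain, the age and the pre-culture were shared by every group, and nothing in the labels says that libraries of a group came from separate litters, so p-values measure the spread between these pools.

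YAP and its paralog TAZ (the product of Wwtr1) are coactivators that bind DNA through TEAD factors. In the Hippo pathway the MST kinases (Stk3, Stk4) activate the LATS kinases (Lats1, Lats2), which phosphorylate YAP and TAZ and hold them in the cytoplasm, while spread cells and tense actin fibres favour their entry into the nucleus, and in the developing inner ear YAP is known for its part in the growth of the sensory progenitors. SRF binds a sequence known as the CArG box, and its coactivators are the MRTFs (Mrtfa, Mrtfb), which enter the nucleus when free actin monomers are used up, and their relative myocardin (Myocd), which resides in the nucleus. The contractile genes it controls are best known from smooth muscle, pericytes and myofibroblasts, cell types that lie beside the sensory epithelium rather than in it.

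The start-site regions of these genes were read for the sequences that both systems use, a TEAD core (GGAATG, or CATTCC where it lies on the other strand) and a CArG box, from 250 bases before to 50 bases after each RefSeq start site on build GRCm38.p6. Windows were found for 7 of the 9 genes, and Ccn2 and Tagln had none in the reference used. The 5 windows below are shown since each holds at least 1 motif before the start site, and the motifs are in capitals with all other bases in lower case and each sequence written 5' to 3' on the strand of its gene. They lie at chr3:145649936-145650235 on the minus strand for Ccn1, chr19:36119795-36120094 on the minus strand for Ankrd1, chr9:102717554-102717853 on the plus strand for Amotl2, chr19:34255324-34255623 on the minus strand for Acta2 and chr2:156775214-156775513 on the plus strand for Myl9.
Ccn1: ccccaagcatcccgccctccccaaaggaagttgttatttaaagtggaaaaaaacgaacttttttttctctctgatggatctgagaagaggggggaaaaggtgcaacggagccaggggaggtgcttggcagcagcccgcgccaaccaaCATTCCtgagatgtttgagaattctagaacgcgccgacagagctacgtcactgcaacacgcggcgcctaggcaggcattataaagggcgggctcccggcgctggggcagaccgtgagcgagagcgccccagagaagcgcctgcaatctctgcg
Ankrd1: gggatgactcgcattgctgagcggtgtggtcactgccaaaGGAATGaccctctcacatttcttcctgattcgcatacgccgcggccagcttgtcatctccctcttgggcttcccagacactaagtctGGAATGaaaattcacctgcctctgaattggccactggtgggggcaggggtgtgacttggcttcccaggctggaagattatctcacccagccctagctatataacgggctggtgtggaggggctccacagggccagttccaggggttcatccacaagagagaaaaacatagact
Amotl2: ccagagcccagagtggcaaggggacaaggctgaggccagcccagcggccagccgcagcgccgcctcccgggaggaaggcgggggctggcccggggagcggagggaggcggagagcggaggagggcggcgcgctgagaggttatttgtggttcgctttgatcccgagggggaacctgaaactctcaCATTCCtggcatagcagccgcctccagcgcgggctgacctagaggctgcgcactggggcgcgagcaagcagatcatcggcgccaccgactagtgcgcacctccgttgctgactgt
Acta2: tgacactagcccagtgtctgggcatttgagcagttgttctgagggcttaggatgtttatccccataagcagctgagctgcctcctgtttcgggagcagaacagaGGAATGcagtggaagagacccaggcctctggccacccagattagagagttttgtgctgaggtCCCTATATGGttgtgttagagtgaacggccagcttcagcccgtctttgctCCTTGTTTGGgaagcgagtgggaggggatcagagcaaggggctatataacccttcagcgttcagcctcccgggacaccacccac
Myl9: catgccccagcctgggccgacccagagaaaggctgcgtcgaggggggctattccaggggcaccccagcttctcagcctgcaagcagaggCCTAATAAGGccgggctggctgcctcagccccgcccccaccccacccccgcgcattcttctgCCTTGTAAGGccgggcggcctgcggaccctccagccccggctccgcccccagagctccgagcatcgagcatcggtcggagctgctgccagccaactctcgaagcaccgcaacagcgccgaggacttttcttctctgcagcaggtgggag

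A TEAD core stood in the windows of 4 of the 4 YAP targets that had one, at position -103 from the start site in Ccn1, at -210 and -123 in Ankrd1, at -65 in Amotl2, and at position 4 in 1 of the 2 windows of Lats2. It also stood in the window of Acta2. Of all 32851 RefSeq windows of this length, 14.7% held a TEAD core on either strand. An exact CArG box stood in the window of Myl9, where it reads CCTAATAAGG, and 1.63% of all windows held 1. With 1 of the 6 inner bases allowed to be C or G, a form looked for after the exact search had been seen, Acta2 held a pair of boxes (CCCTATATGG and CCTTGTTTGG, at -84 and -34 from the start site) and Myl9 held a second box (CCTTGTAAGG). Of all windows, 8.5% held at least 1 box of this form and 0.679% held at least 2. No motifs overlapped one another in these windows, and Cnn1 had none in its window. A match in such a window is a description of its letters, and binding was not measured in these explants.

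Per length of transcript, the YAP targets other than Ankrd1 and the contractile gene Myl9 were the well-expressed genes of the set. Mean levels over the 24 libraries, in RPKM (counts scaled to the gene lengths of the deposited table and to the library total), were 20.6 for Myl9, the regulatory light chain of smooth muscle and non-muscle myosin, and 19.9 for Ccn2, a secreted matricellular protein also known as CTGF. Ccn1, its relative CYR61, stood at 13.5, the kinase gene Lats2 at 11.5 and Amotl2, an angiomotin-like protein that binds YAP at cell junctions, at 11.3. Neighbours among these 5 exchanged places between libraries, since Myl9 exceeded Ccn2 in 12 of 24 libraries, Ccn2 exceeded Ccn1 in 18, Ccn1 exceeded Lats2 in 14 and Lats2 exceeded Amotl2 in 13. The smooth muscle genes followed far below, Tagln (the actin-binding protein transgelin) at a mean of 2.13 RPKM and Acta2 (smooth muscle α-actin) at 0.493. Both steps, from Amotl2 to Tagln and from Tagln to Acta2, held in every library. Ankrd1, a nuclear ankyrin-repeat protein of muscle, and Cnn1, the actin-binding protein calponin, were at the limit of detection with means of 0.145 and 0.134 RPKM.

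The depth of the libraries sets what can be said of the low genes. Counts on genes summed to between 7211357 and 15548856 per library, with a median of 12538495, and 3 counts corresponded to between 0.193 and 0.405 CPM (counts scaled to the library total), which covers counting error only. The library of lowest total was PIO+GM replicate 3 at 6 h. Ankrd1 had 0 to 10 counts in a library and 3 or fewer in 15 of 24, and Cnn1 had 0 to 10 counts and 3 or fewer in 17, so neither passed the filter on low counts and neither was tested. Acta2 had 4 to 43 counts and Tagln 19 to 69, against 87 to 577 for Myl9 and 155 to 1251 for the 4 tested YAP targets. Hair cell markers (7 of 7) and supporting cell markers (6 of 6) all passed the filter. So did all pericyte, fibroblast, endothelial, macrophage and Schwann cell markers, so passing the filter does not by itself identify the tissue. Of 6 skeletal muscle markers Myog, Myod1 and Ckm were near 0, with 0 to 5 counts and at 0 in 9, 6 and 10 libraries, while the other 3 passed the filter, Ttn with 151 to 1209 counts, Des with 88 to 589 and Myh3 with 0 to 16.

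Some reads of 3 members cannot be assigned with certainty. Of the 76-base windows of the longest transcript, 40.6% of those of Tagln also occur in genes on the opposite strand (Pcsk7 and Gm48529), 5.96% of those of Ccn2 occur in the antisense gene Gm15270, and 56.3% of those of Lats2 occur in the overlapping gene Gm49361 on the same strand. The kit marks strand, but whether the counting used it is not given in the sources used here. No such window was found for Ccn1, Ankrd1, Amotl2, Acta2, Cnn1 or Myl9. Of these neighbours Pcsk7 stood in the count table, and its change under PIO was 0.13 (SE 0.08, adjusted p = 0.28) at 6 h and 0.26 (SE 0.08, adjusted p = 0.095) at 24 h on the log2 scale, opposite in sign to that of Tagln. From 6 to 24 h it fell as Tagln did, at -0.33 (SE 0.06, adjusted p = 6.53e-05) over all treatments and -0.36 (SE 0.12, adjusted p = 0.027) in CTRL, and the part of shared reads in the change of Tagln with time was not tested.

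Under pioglitazone contractile genes were lower. Averaged over both backgrounds (PIO against CTRL and PIO+GM against GM, with equal weight), Tagln and Myl9 fell at 6 h, by 1.48-fold and 1.64-fold, and Acta2 and Tagln fell at 24 h, by 3.23-fold and 1.68-fold. None of the 4 tested YAP members (Ccn1, Ccn2, Amotl2 and Lats2) passed the test under pioglitazone at either time with all libraries in the model, while Amotl2 and Lats2 were called lower at 6 h without PIO+GM replicate 1. In the same test 16.1% of 16317 genes were called at 6 h (6.83% lower, 9.25% higher) and 2.79% at 24 h (2% lower, 0.791% higher). The calls of Tagln and Myl9 at 6 h, unlike those of Acta2 and Tagln at 24 h, were lost once a trend with GC content was removed. That model still called 11.4% of all genes at 6 h.

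Acta2, located on chromosome 19 at 34241090 to 34255590 (GRCm38, minus strand), had the largest of these changes. At 6 h its level was 2.01, 2.21 and 1.36 CPM in CTRL, 1.60, 1.35 and 1.56 in GM, 0.965, 0.529 and 1.01 in PIO and 1.44, 1.45 and 1.08 in PIO+GM. At 24 h it was 1.41, 1.92 and 0.960 CPM in CTRL, 1.24, 2.90 and 2.13 in GM, 0.450, 0.456 and 0.286 in PIO and 0.728, 0.909 and 0.491 in PIO+GM. All 3 PIO libraries lay below all 3 CTRL libraries at both times, and at 24 h all 3 PIO+GM libraries lay below all 3 GM libraries, while at 6 h PIO+GM and GM overlapped. The log2 fold change of PIO over both backgrounds was -0.64 (SE 0.25, adjusted p = 0.080) at 6 h and -1.69 (SE 0.26, adjusted p = 0.0013) at 24 h. The single comparisons of 3 against 3 libraries at 24 h gave -1.83 (SE 0.38, adjusted p = 0.057) without gentamicin and -1.55 (SE 0.35, adjusted p = 0.11) with it, so neither passed this test alone. The values rest on few reads, 7, 7 and 4 counts in PIO and 11, 12 and 6 in PIO+GM at 24 h, against 16, 29 and 11 in CTRL and 15, 43 and 32 in GM.

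The call for Acta2 at 24 h was kept when any library was left out, with log2 fold changes between -1.82 and -1.53 and an adjusted p of at most 0.0065. The effect at 24 h minus that at 6 h was -1.05 on the log2 scale, with a 95% interval of -1.80 to -0.29, a difference that did not pass (adjusted p = 0.43).

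Tagln lies on chromosome 9 at 45929619 to 45936058 on the minus strand. Its level at 6 h was 4.42, 5.12 and 5.43 CPM in CTRL, 5.64, 5.05 and 4.69 in GM, 3.60, 2.96 and 2.75 in PIO and 4.49, 3.69 and 3.11 in PIO+GM. The values at 24 h were 2.73, 2.31 and 2.62 CPM in CTRL, 3.47, 3.31 and 4.54 in GM, 1.22, 1.37 and 2.00 in PIO and 3.11, 1.97 and 1.55 in PIO+GM. In both backgrounds and at both times, every library with pioglitazone lay below every library of its comparison group without it, the highest value with pioglitazone being 4.49 CPM in PIO+GM at 6 h, against a lowest value of 4.69 CPM in GM. The log2 fold change over both backgrounds was -0.56 (SE 0.17, adjusted p = 0.034) at 6 h and -0.75 (SE 0.18, adjusted p = 0.029) at 24 h. Within each background it was -0.68 and -0.44 at 6 h and -0.74 and -0.76 at 24 h, without a call in any of the 4. The call at 6 h was lost (adjusted p up to 0.086, log2 fold changes -0.64 to -0.51) without any one of 8 libraries (CTRL 6 h replicates 1, 2 and 3, GM 6 h replicates 1 and 2, PIO 6 h replicate 2 and PIO+GM 6 h replicates 2 and 3). The call at 24 h was lost (adjusted p up to 0.079, log2 fold changes -0.92 to -0.65) without any one of 7 libraries (CTRL 24 h replicates 1 and 3, PIO 24 h replicates 1 and 2, PIO+GM 24 h replicates 2 and 3 and GM 24 h replicate 3).

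Myl9, on chromosome 2 at 156775420 to 156781658 on the plus strand, had levels at 6 h of 15.7, 15.2 and 34.1 CPM in CTRL, 20.3, 13.8 and 14.0 in GM, 12.6, 13.6 and 9.55 in PIO and 7.79, 13.3 and 11.8 in PIO+GM. At 24 h they were 44.7, 34.8 and 28.0 CPM in CTRL, 47.7, 33.2 and 34.8 in GM, 26.4, 14.5 and 23.5 in PIO and 20.2, 17.9 and 29.3 in PIO+GM. As for Tagln, all libraries with pioglitazone lay below all those without it in each of the 4 comparisons, and CTRL replicate 3 was the highest library of the 6 h time point. Over both backgrounds the log2 fold change was -0.71 (SE 0.22, adjusted p = 0.038) at 6 h and -0.76 (SE 0.22, adjusted p = 0.062) at 24 h. At 24 h edgeR's test over all libraries was thus not passed, and DESeq2 called Myl9 with an adjusted p of 0.020. edgeR called it at 24 h in the model of the 12 libraries of that time (-0.77, adjusted p = 0.030) and with a replicate block (adjusted p = 0.037). With each library left out in turn it was called at 24 h in 1 of 24 models. The call at 6 h was lost (adjusted p up to 0.11, log2 fold changes -0.81 to -0.47) without any one of 8 libraries (GM 6 h replicate 1, PIO 6 h replicates 1, 2 and 3, PIO+GM 6 h replicates 1, 2 and 3 and CTRL 6 h replicate 3), and without CTRL replicate 3 the value was -0.47. Cnn1, on chromosome 9 at 22099216 to 22109630, was too low for a test, with 6, 10 and 6 counts in CTRL, 2, 1 and 1 in GM, 3, 1 and 2 in PIO and 10, 4 and 3 in PIO+GM at 6 h and 0, 0 and 2 counts in CTRL, 3, 0 and 6 in GM, 3, 3 and 0 in PIO and 1, 3 and 8 in PIO+GM at 24 h. At these counts Cnn1 did not pass the filter with all libraries in the model.

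**Figure D1:**
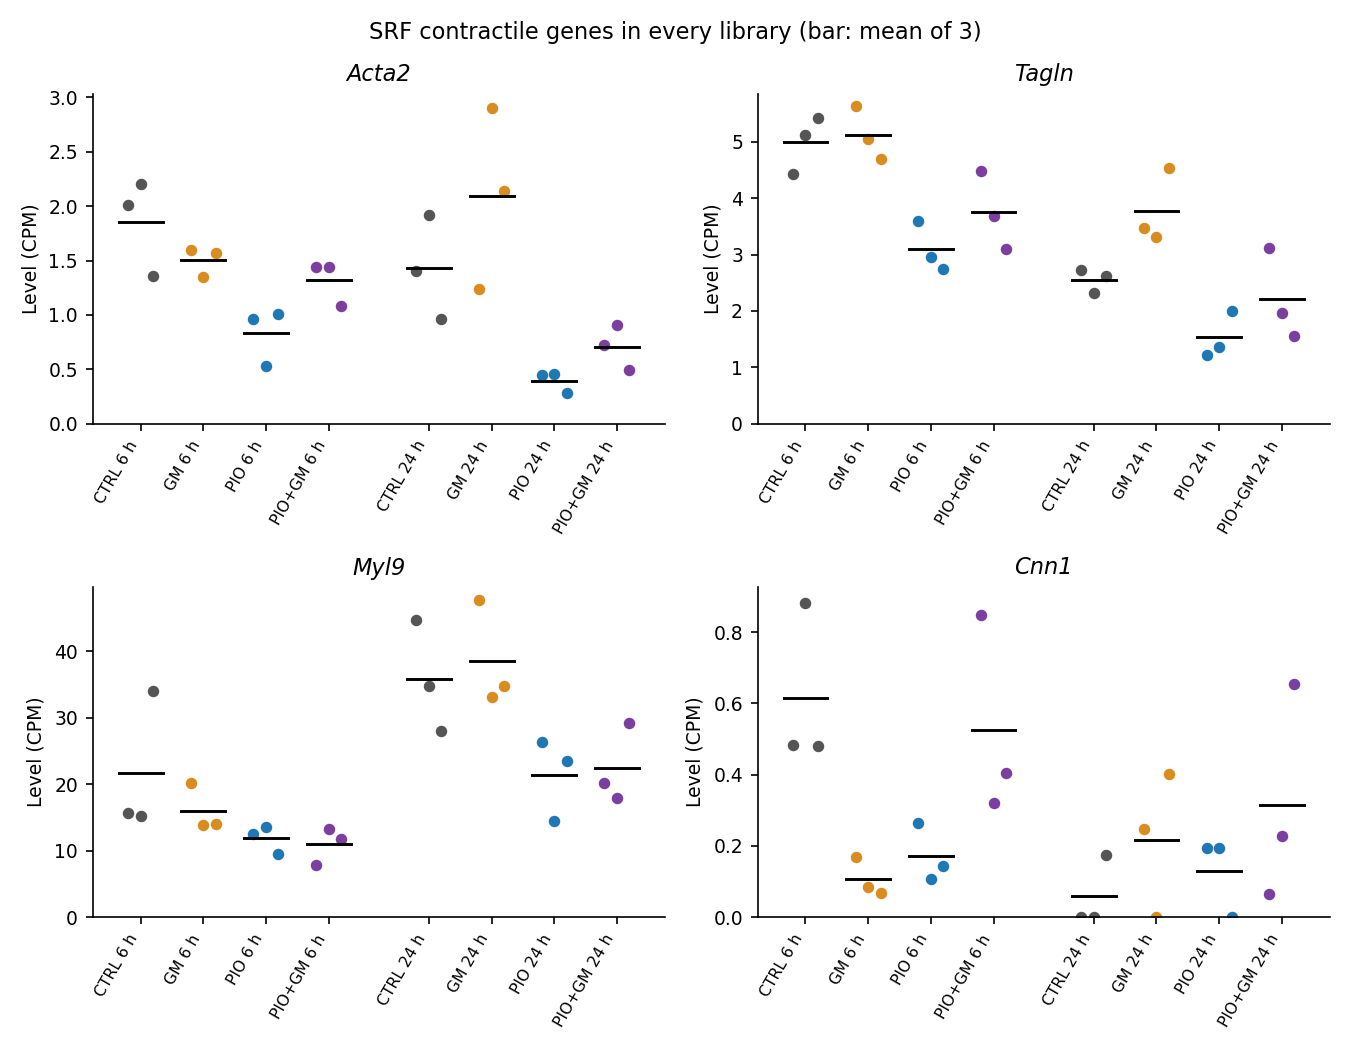
Levels of Acta2, Tagln, Myl9 and Cnn1 in CPM (vertical axes, from 0) in each of the 24 libraries, by treatment and time on the horizontal axes. Points are libraries and bars are the means of 3, and the PIO points of Acta2, Tagln and Myl9 lie below the CTRL points at both times.

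Of the 7 tested genes, 3 had groups that did not overlap in PIO against CTRL at 6 h and again at 24 h, all lower (Acta2, Tagln and Myl9), where 6.73% and 10.6% of all genes tested did so. In PIO+GM against GM the numbers were 2 at 6 h (Tagln and Myl9) and 3 at 24 h, beside 11.4% and 8.57% of all genes. None of these single comparisons called a member by edgeR's quasi-likelihood test, which called 0.337% and 0.153% of all genes in PIO against CTRL at 6 and 24 h and 1.32% and 0.11% in PIO+GM against GM. At an unadjusted p under 0.05 the numbers of members were 4 and 3 in PIO against CTRL at 6 and 24 h (15.2% and 9.93% of all genes) and 0 and 3 in PIO+GM against GM (25% and 7.47%). DESeq2's Wald test called Acta2 in both comparisons at 24 h, -1.84 (adjusted p = 0.028) and -1.56 (adjusted p = 0.047), and no member at 6 h. Over all genes DESeq2 called 162 (PIO against CTRL) and 102 (PIO+GM against GM) at 24 h, while the 6 h numbers were 383 and 1320. At a given time these comparisons share no libraries, since PIO was set against CTRL and PIO+GM against GM.

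The calls at 6 h move with the base composition of genes. Over 15389 genes with a known GC content, log2 fold changes of PIO over both backgrounds had a Spearman correlation of -0.563 with GC content at 6 h and -0.053 at 24 h. Myl9 has a GC content of 56.6%, Tagln 52.5% and Acta2 49.6%. With a GC trend removed from each library, the values at 6 h became -0.42 (adjusted p = 0.12) for Tagln, -0.35 (adjusted p = 0.45) for Myl9 and -0.62 (adjusted p = 0.11) for Acta2, so that neither call was kept. At 24 h the same step gave -1.62 (adjusted p = 9.71e-04) for Acta2 and -0.67 (adjusted p = 0.022) for Tagln, both still called. A model of the 12 libraries at 6 h alone, which called 0.907% of all genes, also gave no call, with -0.57 (adjusted p = 0.088) for Tagln and -0.73 (adjusted p = 0.11) for Myl9.

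More genes of the wider SRF list fell than rose at 6 h. Of 20 other contractile and actin genes 18 were tested, and 10 fell and 1 rose with PIO over both backgrounds at 6 h, with a median log2 fold change of -0.57, beside a median of -0.02 over all genes tested and 16.1% of all genes called (6.83% lower, 9.25% higher). Those that fell were the smooth muscle actin Actg2 (-1.40), the cytoplasmic actins Actb (-0.57) and Actg1 (-0.34), the tropomyosins Tpm2 (-1.002) and Tpm1 (-0.47), the actin cross-linker filamin A (-0.62 for Flna), the focal adhesion protein Zyx (-0.67), the LIM protein Csrp1 (-0.98), the actin nucleator leiomodin (-0.78 for Lmod1) and the intermediate filament gene desmin (-0.59 for Des). Adjusted p among these 10 ranged from 0.0010 for Tpm2 to 0.030 for Lmod1. The gene that rose was Myh11, the heavy chain of smooth muscle myosin, at 0.69 (SE 0.21, adjusted p = 0.035). Of the windows of Actg1, 54.3% also occur in other genes, Actg-ps1 among them, so its value is uncertain.

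At 24 h, 3 genes of this list fell and none rose, with a median of -0.27, where 2.79% of all genes were called (2% lower). They were Actg2 at -1.83 (SE 0.36, adjusted p = 0.0086), the kinase of the myosin light chain Mylk at -0.88 (SE 0.17, adjusted p = 0.0078), and Des at -0.86 (SE 0.14, adjusted p = 0.0022). Actg2 and Des were thus lower at both times, and Mylk stood at -0.06 at 6 h. Of the genes with the next lowest p, Flna stood at -0.36 (SE 0.11, adjusted p = 0.082) and Myh11 at 0.64 (SE 0.22, adjusted p = 0.13), without a call. With the GC trend removed the list had 7 genes lower and 1 higher at 6 h and 4 lower at 24 h, where 11.4% and 11.2% of all genes were called. In the model of the 12 libraries at 6 h alone, which called 0.907% of all genes, it had 1 lower while its median was -0.58, and in that of the 12 libraries at 24 h, which called 8.68%, it had 6 lower and 1 higher. Leaving out each library in turn gave 8 to 12 lower at 6 h and 3 to 5 at 24 h, and the call of Myh11 at 6 h was not kept in each of these models. They called 6.88% to 30.6% of all genes at 6 h and 1.1% to 4% at 24 h.

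Some regulators of YAP were called at 6 h, in both directions, as were many genes at large. SRF and its coactivators were not called, but they are too few for a contrast between the systems. The SRF gene itself had log2 fold changes of -0.30 (SE 0.17, adjusted p = 0.22) at 6 h and 0.01 (SE 0.17, adjusted p = 0.98) at 24 h under PIO, and none of Srf, Mrtfa, Mrtfb and Myocd passed at either time, also at an unadjusted p of 0.05, where Myocd had 0 to 11 counts. Of 20 genes of the Hippo pathway and the TEAD factors, 3 fell at 6 h and 2 rose, beside 16.1% of all genes called. Wwtr1, the gene of TAZ, fell at -0.32 (SE 0.10, adjusted p = 0.046), Tead1 at -0.41 (SE 0.13, adjusted p = 0.040), and Ajuba, a LIM protein that restrains LATS, at -0.37 (SE 0.11, adjusted p = 0.030). The MST kinase genes Stk3 (0.37) and Stk4 (0.26) rose, with adjusted p of 0.026 and 0.018. At 24 h none of the 20 passed (1 at an unadjusted p under 0.05, Stk4 at 0.18). There 2 were higher with the GC trend removed and 1 in the model of the 12 libraries at 24 h, beside 11.2% and 8.68% of all genes called. Yap1 stood at 0.03 (SE 0.07, adjusted p = 0.78) at 6 h and 0.12 (SE 0.07, adjusted p = 0.43) at 24 h. No gene of this list was called at 6 h in the model of the 12 libraries of that time, which called 0.907% of all genes. With the GC trend removed 1 was higher and 2 were lower at 6 h, beside 11.4% of all genes called. Leaving out each library in turn gave 0 to 5 lower at 6 h, with 0 without GM replicate 2, in models that called 6.88% to 30.6% of all genes.

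**Figure D2:**
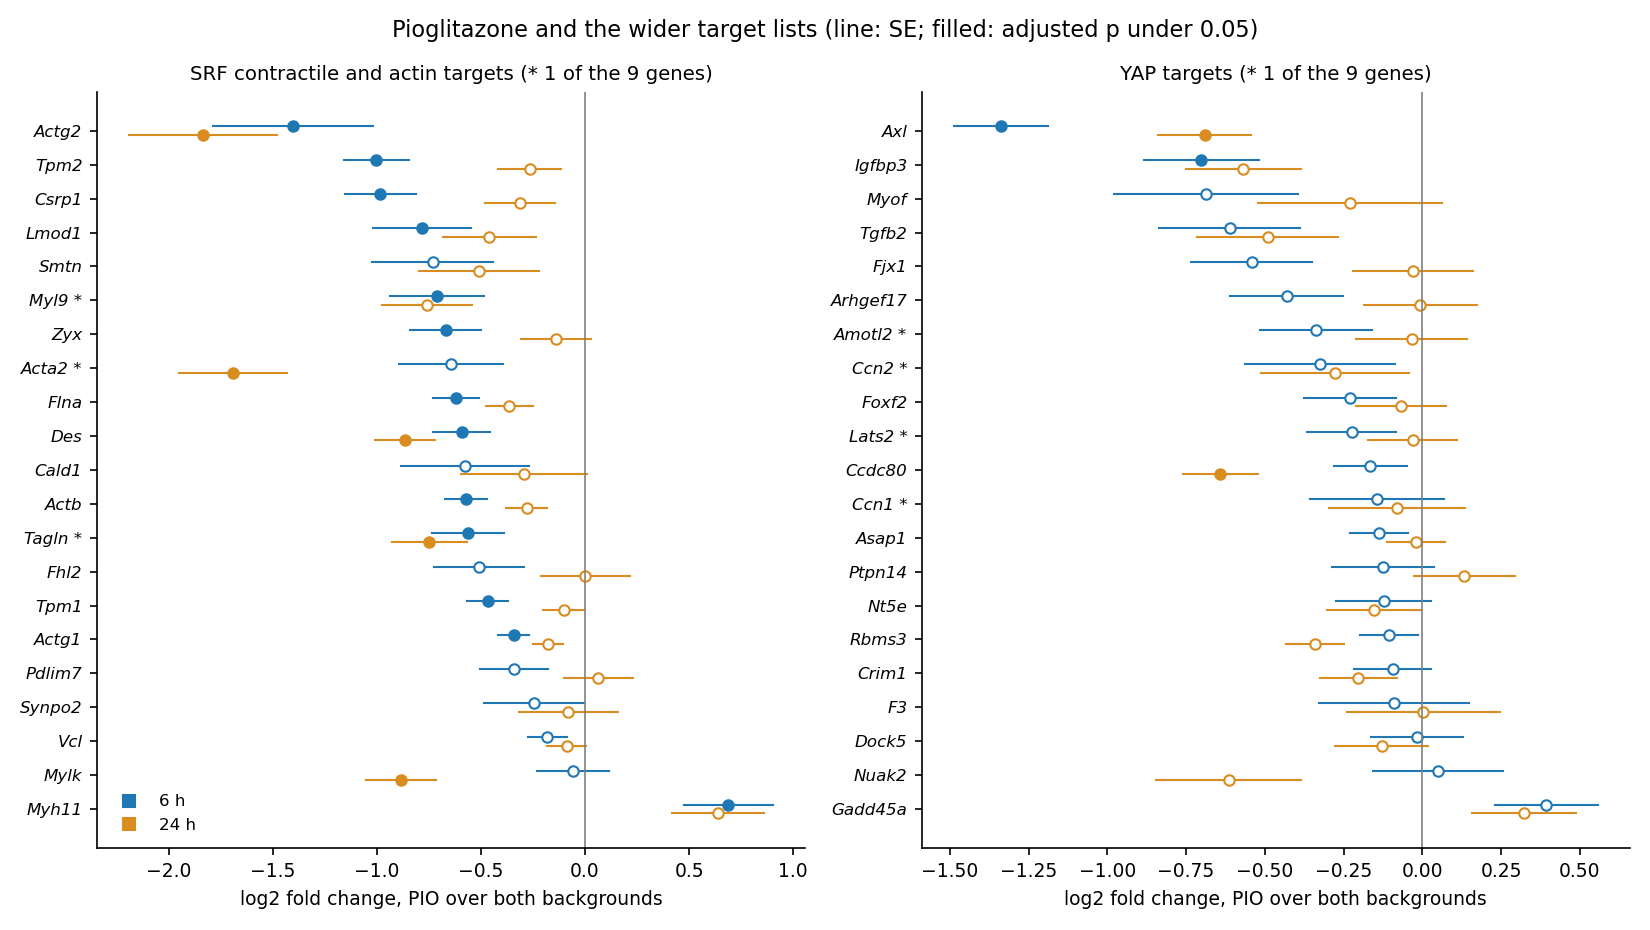
log2 fold change of PIO over both backgrounds (horizontal axes) for SRF contractile and actin targets and for YAP targets, ordered by the value at 6 h, with 6 h in blue and 24 h in orange. Lines are 1 SE to each side and filled points have an adjusted p under 0.05, and the SRF targets lie mostly to the left of 0 at 6 h, with Myh11 to its right.

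None of the YAP members Ccn1, Ccn2, Amotl2 and Lats2 was called in any comparison of treatments with all libraries in the model, and the groups of these 4 genes overlapped in every one of them. For PIO over both backgrounds, 0 of 4 were called at either time by edgeR's quasi-likelihood test or by DESeq2, and 0 had an unadjusted p under 0.05, which 33.6% of all genes had at 6 h and 16.9% at 24 h. Over both backgrounds PIO gave -0.34 (SE 0.18, adjusted p = 0.19) for Amotl2, -0.32 (SE 0.24, adjusted p = 0.35) for Ccn2, -0.22 (SE 0.14, adjusted p = 0.27) for Lats2 and -0.14 (SE 0.21, adjusted p = 0.66) for Ccn1 at 6 h. At 24 h the 95% intervals were -0.32 to 0.26 for Lats2, -0.40 to 0.34 for Amotl2, -0.53 to 0.37 for Ccn1 and -0.77 to 0.22 for Ccn2 on the log2 scale. The plot of fold changes sets these intervals beside those of the contractile genes.

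**Figure D3:**
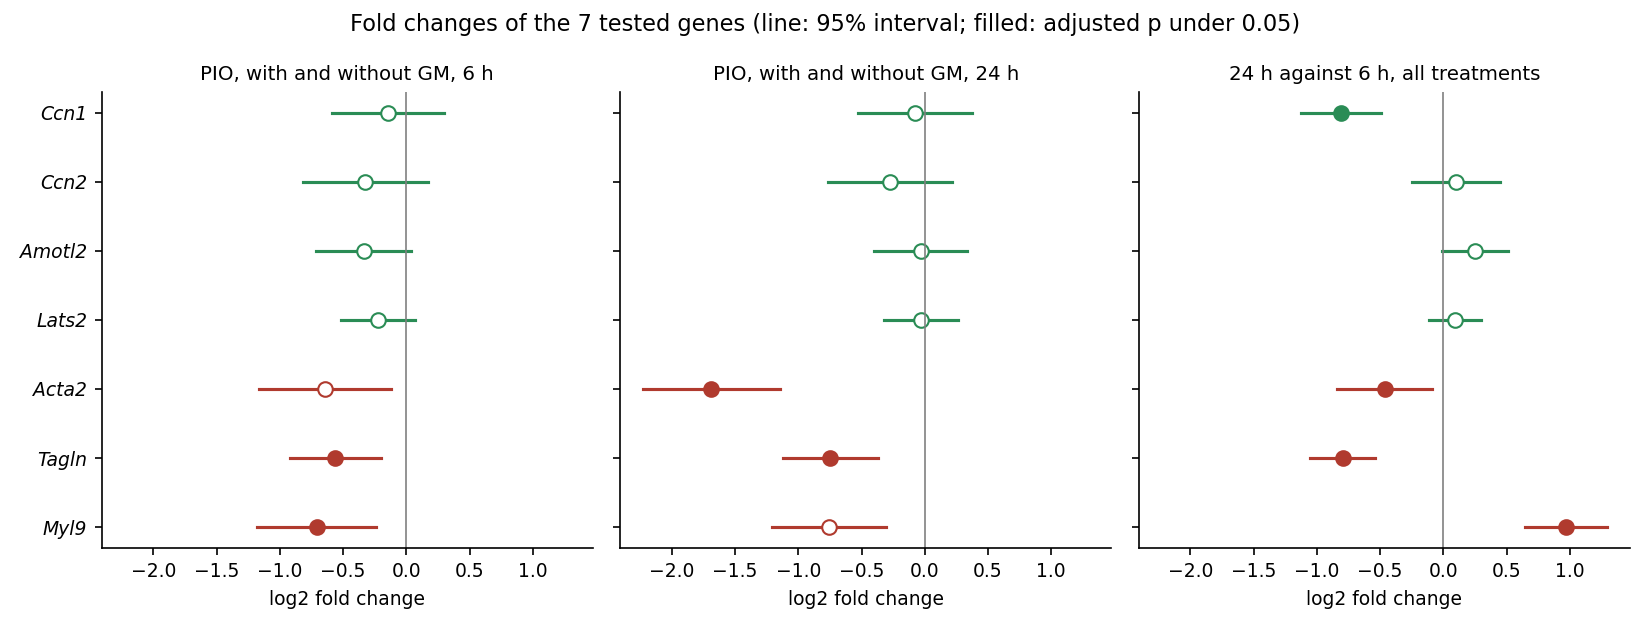
log2 fold changes (horizontal axes) of the 7 tested genes for PIO over both backgrounds at 6 h and 24 h and for 24 h against 6 h over all treatments, with YAP targets in green and contractile genes in red. Lines are 95% intervals and filled points have an adjusted p under 0.05, and under PIO the filled points are all contractile genes.

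Ccn2, on chromosome 10 at 24595442 to 24598683 (plus strand), was the most uneven of them. Its level at 6 h was 34.2, 64.5 and 99.9 CPM in CTRL, 37.9, 38.8 and 40.0 in GM, 35.5, 52.3 and 25.1 in PIO and 36.7, 61.1 and 33.1 in PIO+GM. The later time gave 44.0, 69.6 and 37.9 CPM in CTRL, 56.6, 66.3 and 47.6 in GM, 59.96, 33.9 and 46.6 in PIO and 42.2, 34.9 and 48.3 in PIO+GM. The 3 CTRL libraries at 6 h differed by more than those of any other group, with replicate 3 the highest of all 24 libraries. PIO against CTRL at 6 h gave -0.82 (SE 0.34, adjusted p = 0.26) with an unadjusted p of 0.025, and GM against CTRL gave -0.77 (SE 0.34, adjusted p = 1) with an unadjusted p of 0.033, comparisons that share the CTRL libraries. Without CTRL replicate 3 these values were -0.40 and -0.34. The spread of Ccn2 within groups exceeded that of 92.2% of 5364 genes of like level.

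Ccn1 lies on chromosome 3 at 145646976 to 145649981 (minus strand). At 6 h its level was 26.3, 58.1 and 38.4 CPM in CTRL, 24.7, 35.3 and 38.0 in GM, 31.5, 30.8 and 31.4 in PIO and 43.0, 40.9 and 20.9 in PIO+GM, and CTRL replicate 2 was the highest of the 24 libraries. The 24 h values were 19.9, 24.7 and 15.3 CPM in CTRL, 15.7, 29.2 and 17.6 in GM, 17.5, 25.2 and 14.8 in PIO and 21.2, 20.4 and 16.6 in PIO+GM. Amotl2, on chromosome 9 at 102716672 to 102733418 (plus strand), had 41.3, 51.2 and 48.4 CPM in CTRL, 39.4, 54.9 and 55.2 in GM, 43.0, 28.5 and 46.3 in PIO and 53.1, 36.5 and 21.5 in PIO+GM at 6 h. The 24 h libraries had 39.3, 61.0 and 43.9 CPM in CTRL, 50.9, 67.4 and 49.2 in GM, 49.4, 51.0 and 53.9 in PIO and 58.8, 47.6 and 43.0 in PIO+GM. Its lowest value was that of PIO+GM replicate 3 at 6 h, the library of lowest total. Without PIO+GM replicate 1 at 6 h, which left 2 PIO+GM libraries in that group, Amotl2 and Lats2 were called lower by edgeR for PIO over both backgrounds at 6 h, at -0.52 (adjusted p = 0.026) and -0.38 (adjusted p = 0.033), in a model that called 30.6% of all genes. Both were also called in PIO+GM against GM at 6 h there, at -0.78 (adjusted p = 0.034) and -0.65 (adjusted p = 0.024).

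Lats2, on chromosome 14 at 57689662 to 57758388 (minus strand), had 63.0, 72.2 and 58.2 CPM in CTRL, 59.5, 64.8 and 83.5 in GM, 55.9, 44.3 and 80.2 in PIO and 74.2, 47.5 and 41.1 in PIO+GM at 6 h. At 24 h it had 67.3, 68.6 and 64.4 CPM in CTRL, 66.9, 70.9 and 61.1 in GM, 60.7, 67.9 and 65.8 in PIO and 69.6, 68.9 and 58.1 in PIO+GM, a narrower span than that of 6 h. Ankrd1, on chromosome 19 at 36111961 to 36120099, had 2, 7 and 2 counts in CTRL, 4, 10 and 2 in GM, 4, 8 and 1 in PIO and 5, 3 and 2 in PIO+GM at 6 h. At 24 h it had 2, 4 and 1 counts in CTRL, 0, 3 and 4 in GM, 1, 1 and 1 in PIO and 4, 2 and 1 in PIO+GM. These counts are too few for a comparison between groups, although Ankrd1 is among the most used readouts of YAP activity in other tissues.

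**Figure D4:**
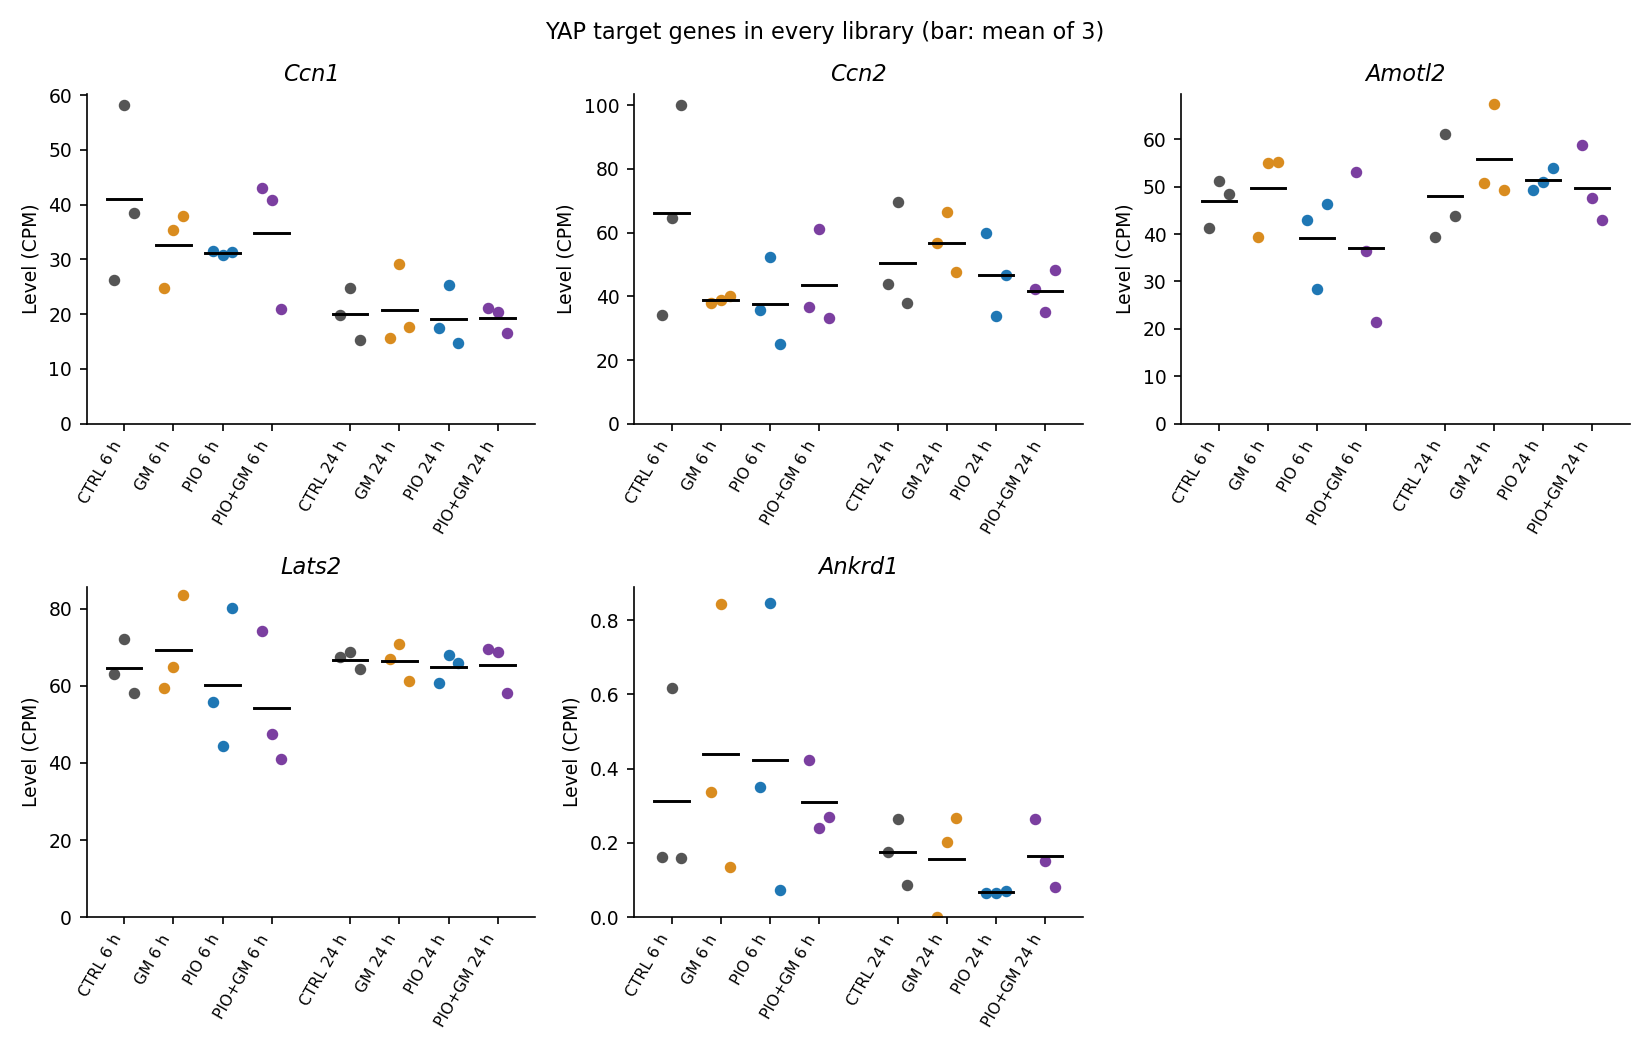
Levels of Ccn1, Ccn2, Amotl2, Lats2 and Ankrd1 in CPM (vertical axes, from 0) in each of the 24 libraries, by treatment and time. Points are libraries and bars are the means of 3, and within each time point the treatments overlap for Ccn1, Ccn2, Amotl2 and Lats2.

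Of 17 other YAP targets, all tested, 2 fell with PIO over both backgrounds at 6 h and 2 at 24 h, and none rose, with medians of -0.14 and -0.15, where 16.1% of all genes were called at 6 h (6.83% lower) and 2.79% at 24 h (2% lower). At 6 h these were Axl, a receptor tyrosine kinase, at -1.34 (SE 0.15, adjusted p = 4.45e-05), and Igfbp3, a binding protein of insulin-like growth factors, at -0.70 (SE 0.18, adjusted p = 0.017). At 24 h they were Axl again, at -0.69 (SE 0.15, adjusted p = 0.016), and the matrix protein gene Ccdc80 at -0.64 (SE 0.12, adjusted p = 0.0057). Axl was the member of this list that was also called in single comparisons, at -1.35 (SE 0.21, adjusted p = 0.0075) in PIO against CTRL and -1.32 (SE 0.21, adjusted p = 0.0072) in PIO+GM against GM at 6 h. DESeq2 called 4 genes of the list lower at each time, beside 21.3% of all genes at 6 h and 5.95% at 24 h, and the model of the 12 libraries at 24 h also called 4, beside 8.68%. With the GC trend removed the list had 4 genes lower at 6 h and 2 at 24 h, beside 11.4% and 11.2% of all genes called. Leaving out each library in turn gave 1 to 4 at 6 h (1 without PIO+GM replicate 3) and 1 to 3 at 24 h (1 without PIO replicate 1). Those models called 6.88% to 30.6% of all genes at 6 h and 1.1% to 4% at 24 h.

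No member was called for gentamicin. In GM against CTRL, 0 of 7 members were called at 6 h and 0 at 24 h by edgeR's quasi-likelihood test and 0 by DESeq2, where edgeR called 0% and 0.0123% of all genes, and 1 member at each time had an unadjusted p under 0.05 (1.49% and 1.67% of all genes). At 24 h this was Tagln, at 0.57 (SE 0.25, adjusted p = 1), and all 3 GM libraries lay above all 3 CTRL libraries, where 2.6% of all genes did the same. In PIO+GM against PIO, 0 members were called at 6 h and at 24 h by either tool, beside 0% and 0.0735% of all genes by edgeR, and 0 and 1 had an unadjusted p under 0.05 (3.06% and 2.59% of all genes). The PIO+GM libraries lay above the PIO libraries for Acta2 at both times (0.65 and 0.82, adjusted p = 1 and 1), where 1.7% and 4.1% of all genes lay above.

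The effect of pioglitazone was also compared directly between backgrounds and between times. The interaction of PIO with GM called 0 members at 6 h and 0 at 24 h by edgeR and by DESeq2, and 0 at an unadjusted p under 0.05 (1.8% and 1.21% of all genes), with 0% of all genes called by edgeR. For Acta2 the effect with gentamicin minus that without it was 0.95 on the log2 scale, with a 95% interval of -0.09 to 1.99, and at 24 h it was 0.28, with an interval of -0.79 to 1.34. For Ccn2 at 6 h it was 0.99, with an interval of -0.01 to 1.98. The interaction of PIO with time called 0 members by either tool, where edgeR called 0.00613% of all genes and DESeq2 46 genes, and 1 member, Acta2, had an unadjusted p under 0.05 (10.1% of all genes). That of GM with time called 0 members by either tool, which both called 0 genes in all, and 0 members had an unadjusted p under 0.05 (0.766% of all genes).

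Ccn1 and the 3 tested contractile genes changed with time in culture. Over all treatments, Ccn1, Tagln and Acta2 fell and Myl9 rose from 6 to 24 h, 4 of 7 members, where 62.6% of all genes were called (30.7% lower and 31.9% higher), so that the share of members called is near that of all genes. Ccn1 fell at -0.81 (SE 0.15, adjusted p = 1.35e-04) and Tagln at -0.80 (SE 0.12, adjusted p = 1.75e-05), which is 1.75-fold and 1.74-fold. Myl9 rose, at 0.97 (SE 0.16, adjusted p = 2.47e-05). Acta2 fell at -0.46 (SE 0.18, adjusted p = 0.031), a call lost without any one of 11 libraries (adjusted p up to 0.065, log2 fold changes -0.54 to -0.39), namely CTRL 6 h replicates 1 and 2, GM 6 h replicate 1, PIO 6 h replicates 1 and 3, PIO+GM 6 h replicates 1 and 2, GM 24 h replicate 1, CTRL 24 h replicate 3, PIO 24 h replicate 3 and PIO+GM 24 h replicate 3. Ccn2 (0.10), Amotl2 (0.25) and Lats2 (0.09) did not pass, with 95% intervals of -0.25 to 0.45, -0.01 to 0.51 and -0.12 to 0.30. Without PIO+GM replicate 1 at 6 h Amotl2 was called as well, at 0.35 (adjusted p = 0.013).

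Within CTRL, where no drug was present, Ccn1 went from 26.3, 58.1 and 38.4 CPM at 6 h to 19.9, 24.7 and 15.3 at 24 h, at -1.03 (SE 0.31, adjusted p = 0.016), and Tagln from 4.42, 5.12 and 5.43 to 2.73, 2.31 and 2.62, at -0.97 (SE 0.25, adjusted p = 0.0068). The levels of both genes did not overlap between the times, where 22.3% of all genes were lower without overlap. These were the 2 members called in CTRL, beside 28% of all genes. The call for Ccn1 was lost without either of CTRL 6 h replicate 2 and CTRL 24 h replicate 3 (adjusted p up to 0.14), and without CTRL replicate 2 at 6 h its value was -0.69. Myl9 was called as well without CTRL replicate 3 at 6 h. Cnn1 could enter the test when a library was left out, since the filter then asks for fewer libraries, and did so through the CTRL group at 6 h where its counts are highest, so that a call for it in this comparison is not a result.

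In GM, 1 member was called, Myl9 at 1.27 (SE 0.31, adjusted p = 0.0061), beside 24.2% of all genes. In PIO, 2 were called, Tagln at -1.02 (SE 0.26, adjusted p = 0.0069) and Myl9 at 0.86 (SE 0.31, adjusted p = 0.047), beside 29%. In PIO+GM, 3 were called, Ccn1 at -0.85 (SE 0.31, adjusted p = 0.037), Tagln at -0.76 (SE 0.25, adjusted p = 0.024) and Myl9 at 1.04 (SE 0.32, adjusted p = 0.017), beside 34.6%. Leaving out 1 library gave 1 to 2 members in GM, 1 to 3 in PIO and 0 to 3 in PIO+GM, with 0 without PIO+GM replicate 3 at 24 h. In these 24 models the calls of Myl9 in GM and Tagln in PIO were always kept. That of Myl9 in PIO was lost in 8, and those of Ccn1, Tagln and Myl9 in PIO+GM in 5, 4 and 2. Tagln fell from 6 to 24 h in CTRL, PIO and PIO+GM and stood at -0.44 in GM, and Acta2 stood at 0.48 in GM, -0.36 in CTRL, -1.07 in PIO and -0.90 in PIO+GM, with no call within a treatment as reported. The adjusted p of Acta2 in PIO was 0.052. edgeR called it there with library size only (adjusted p = 0.0498), with a replicate block (adjusted p = 0.040) and in 3 of 24 models with a library left out. Differences between treatments in these changes with time called no member in the interactions given above.

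Other genes of both systems changed with time in both directions, as did all genes tested, of which 31.9% rose and 30.7% fell. Of the 18 tested SRF and actin targets, 5 rose, Mylk (1.17), Csrp1 (1.08), Lmod1 (0.72), Cald1 (0.70) and Tpm2 (0.64), and 6 fell, Des (-1.56), Tpm1 (-0.60), Myh11 (-0.54), Pdlim7 (-0.37), Zyx (-0.33) and Vcl (-0.30). Of 17 other YAP targets, 3 rose, Arhgef17 (0.51), Foxf2 (0.51) and Rbms3 (0.45), and 9 fell, Nuak2 (-1.76), F3 (-1.64), Igfbp3 (-0.97), Myof (-0.95), Gadd45a (-0.71), Ccdc80 (-0.56), Dock5 (-0.41), Nt5e (-0.27) and Asap1 (-0.21). Of 20 Hippo and TEAD genes, 5 rose, Vgll4 (1.08), Tead2 (0.96), Tead3 (0.33), Limd1 (0.19) and Yap1 (0.14), and 9 fell, Tead4 (-2.40), Wwtr1 (-0.60), Tead1 (-0.60), Mob1a (-0.53), Lats1 (-0.42), Mob1b (-0.34), Stk4 (-0.26), Stk3 (-0.21) and Sav1 (-0.14). Among the TEAD factors, the DNA-binding partners of YAP, Tead4 and Tead1 fell while Tead2 and Tead3 rose. Of SRF and its coactivators, Myocd fell (-1.55, with 0 to 11 counts).

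The contractile genes are also expressed by pericytes and fibroblasts, and some markers of these cells were lower with pioglitazone. In these bulk libraries fewer cells of a type and less RNA per cell cannot be told apart. Beside the counts of markers below, 16.1% of all genes were called under PIO over both backgrounds at 6 h (6.83% lower) and 2.79% at 24 h (2% lower). Of 7 pericyte markers, 2 fell at 6 h, Cspg4 (-1.66) and Pdgfrb (-1.02), and 1 at 24 h, Cspg4 (-0.96). Of 7 fibroblast markers, 2 fell at 6 h, Pdgfra (-0.81) and Col3a1 (-0.54), and 4 at 24 h, Postn (-1.75), Col3a1 (-0.93), Dcn (-0.88) and Pdgfra (-0.41). No marker of either list was at 0 in any library. The counts of markers called lower, with each library left out in turn, ranged from 2 to 5 at 6 h and 0 to 1 at 24 h for pericytes (0 without GM replicate 1 at 6 h) and from 1 to 3 at 6 h and 2 to 4 at 24 h for fibroblasts (1 without CTRL replicate 1 at 6 h, 2 without CTRL replicate 1 at 24 h). These leave-one-out models called 6.88% to 30.6% of all genes at 6 h and 1.1% to 4% at 24 h. The model of the 12 libraries at 6 h, which called 0.907% of all genes, called 1 marker of each list, with medians of -0.50 for pericytes and -0.47 for fibroblasts, against -0.49 and -0.46 as reported. The pericyte call at 24 h was lost with library size only, with no filter and with at least 10 counts in every library. Their part in the changes of Acta2, Tagln and Myl9 was not tested.

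The summed level of the pericyte markers at 24 h ranged from 470 to 585 CPM in CTRL, 453 to 638 in GM, 368 to 520 in PIO and 347 to 439 in PIO+GM. At 6 h it ranged from 440 to 662 CPM in CTRL, 429 to 679 in GM, 307 to 561 in PIO and 346 to 438 in PIO+GM. That of the fibroblast markers at 24 h ranged from 4978 to 5587 CPM in CTRL, 4768 to 6837 in GM, 3165 to 3914 in PIO and 3112 to 3683 in PIO+GM. The groups with and without pioglitazone did not overlap there, and 2.98% of all single genes lay lower without overlap in the same division of libraries. This sum rests mostly on Col1a2, Col3a1 and Lum, with medians of 1293, 1131 and 597 CPM over all libraries. Of these genes Col3a1 alone was called at 24 h. At 6 h the fibroblast sum ranged from 3746 to 5347 CPM in CTRL, 3502 to 5081 in GM, 2734 to 3907 in PIO and 2942 to 4129 in PIO+GM, and here the groups overlapped. 

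Marker lists moved with time as well, where 62.6% of all genes were called (31.9% higher, 30.7% lower), and their part in the changes of Ccn1, Tagln, Acta2 and Myl9 with time was not tested. Values are log2 fold changes from 6 to 24 h over all treatments. Of 7 pericyte markers 6 rose, Kcnj8 (0.78), Cspg4 (0.75), Vtn (0.70), Notch3 (0.63), Pdgfrb (0.62) and Abcc9 (0.60), and Rgs5 fell (-1.42). Of 7 fibroblast markers Pdgfra (0.55) and Col3a1 (0.48) rose and Dcn fell (-0.40), and of 6 endothelial markers Emcn rose (0.29) and Cdh5 fell (-0.60). The 3 tested skeletal muscle markers fell, Des (-1.56), Myh3 (-1.48) and Ttn (-1.25). Macrophage and supporting cell markers were called in the higher direction, 4 of 6, C1qa (1.65), Cx3cr1 (1.48), Aif1 (1.05) and Cd68 (0.42), and 4 of 6, Hes5 (1.503), Sox2 (0.54), Fgfr3 (0.50) and Cdkn1b (0.29). Of 7 hair cell markers 3 rose, Atoh1 (0.73), Pou4f3 (0.57) and Myo7a (0.42), and Slc17a8 fell (-1.55).

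The other marker lists moved as follows under PIO over both backgrounds, and their part in the results was not tested either. At 6 h, where 6.83% of all genes were lower, 4 of 7 hair cell markers fell, Pou4f3 (-1.02), Slc17a8 (-0.997), Gfi1 (-0.78) and Myo7a (-0.68), as did 1 of 6 endothelial markers, Cldn5 (-1.12), and 1 of 5 Schwann cell markers, Sox10 (-0.54). Of 3 tested skeletal muscle markers Ttn rose (0.89) and Des, which is also an SRF target, fell. The hair cell count was 1 with the GC trend removed, where the median of the list was -0.41, and 0 in the model of the 12 libraries at 6 h, where it was -0.71, against -0.70 as reported (11.4% and 0.907% of all genes called in these models), and it was 1 to 4 with each library left out in turn, with 1 without GM replicate 1. The models with a library left out called 6.88% to 30.6% of all genes at 6 h. None of 6 macrophage and 6 supporting cell markers passed at 6 h as reported, and 0 had an unadjusted p under 0.05. At 24 h none of the hair cell, endothelial, Schwann cell, macrophage and supporting cell markers passed, with 1 hair cell marker, Slc17a8 (-1.01), at an unadjusted p under 0.05 and 0 in the other 4 lists, and of the skeletal muscle markers Des fell.

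The members did not vary as a block from library to library. Over the 24 libraries, where differences of culture time, treatment and depth enter every pair, Pearson's r between pairs of YAP targets ranged from -0.142 to 0.814, with a median of 0.126 over 6 pairs, and the highest was that of Amotl2 and Lats2. After group means were removed, the median over these pairs was 0.425, and Amotl2 and Lats2 stood at 0.781. Acta2 and Tagln had an r of 0.718 over the 24 libraries and of -0.011 within groups. Ccn2 and Myl9 had an r of 0.571 over the libraries and 0.634 within groups, and CTRL replicate 3 was the highest library of the 6 h time point for both. Among genes with a mean log2 CPM of at least 3 (11300 candidates), those most like the mean pattern of the 4 tested YAP targets were Ier2 (r = 0.87), Abtb2 (0.862), Iffo2 (0.853), Rps6kc1 (0.845) and N4bp3 (0.843). Those most like the mean pattern of the 3 tested contractile genes were Krt19 (r = 0.779), Serpinb1a (0.774), Vstm2a (0.773), Unc13c (0.772) and Wfikkn2 (0.766). With group means removed, the r of these 5 ranged from -0.422 to 0.377, and that of the 5 genes like the YAP targets from 0.721 to 0.846.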

How the data were processed

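Total RNA of the explants was made into libraries with a stranded total RNA kit and sequenced as 76-base single reads. Per the labels and the study's methods, the authors aligned reads with STAR to mouse build mm10 and counted with QuasR the reads that start in any exon of a RefSeq gene, and they deposited raw counts with gene lengths for 24 libraries. How the counting handled strand and reads with more than 1 match is not given in the sources used here. The 2 flow cells named in the labels carried every library.

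Counts were tested in R 4.3.3 with edgeR 4.0.16 (limma 3.58.1), by the quasi-likelihood F-test with TMM factors, a mean per group over all 24 libraries and Benjamini-Hochberg adjustment over the 16317 genes that passed filterByExpr, with 0.05 as the threshold. The effect of PIO over both backgrounds is the mean of PIO against CTRL and PIO+GM against GM. Intervals (95%) used the SE and the t distribution with the degrees of freedom of the test, and log2 CPM used a prior count of 2. The biological coefficient of variation was 0.2251. The steps were tested on simulated data with known changes. Alternatives were library size without TMM, DESeq2 1.42.0, no filter, at least 10 counts in every library, a replicate block, removal of a trend with GC content (a spline with 4 degrees of freedom), the 12 libraries of a time point and each library left out.

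All 9 members are named, with every gene of a fixed list that passed the test in a comparison described and otherwise at most the 3 of lowest p. Pattern likeness used the tested members. Pcsk7, Yap1 under PIO and the GC content were added after values were seen, as were the counts of the wider lists under the alternatives. The members and lists were chosen with earlier results of these data known.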

Additional observations from a re-analysis of the deposited data

How the results depend on the processing

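Of 19 counts of members called, all 19 were identical with library size in place of TMM, 16 with DESeq2, 15 with no filter, 16 with at least 10 counts in every library, 16 with the GC trend removed, and 10 of 12 in models restricted to the 12 libraries of 1 time. An identical count can hold other members. With library size only, time in PIO gained Acta2 (adjusted p = 0.0498 by edgeR) and lost another member. Those that moved by more than 1.5 times follow. PIO against CTRL at 24 h and PIO+GM against GM at 24 h called 0 members as reported and 1 each with DESeq2, Acta2, and the former also called 1 with the GC trend removed. PIO over both backgrounds called 2 members at each time as reported. At 6 h it called 0 with the GC trend removed, 0 in the model of 12 libraries and 1 with no filter (Myl9). At 24 h it called 1 with no filter (Acta2) and 1 with at least 10 counts in every library (Tagln), where Acta2 was not tested since 6 libraries had fewer, which also took it from the call over all treatments with time. Time in PIO+GM called 1 with no filter (Myl9) against 3 as reported, and time in PIO called 1 with at least 10 counts (Tagln) against 2. The cause was not tested except where a gene left the test. No value of a member changed sign past the threshold.

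With each library left out in turn, the number of members called ranged from 0 to 3 for PIO over both backgrounds at 6 h and 1 to 3 at 24 h, 0 to 1 for PIO against CTRL at 24 h, 0 to 2 for PIO+GM against GM at 6 h, 1 to 4 for time in CTRL, 1 to 2 in GM, 1 to 3 in PIO, 0 to 3 in PIO+GM and 4 to 5 over all treatments, and from 0 to 0 for the other 10 comparisons. Cnn1 and Ankrd1 can enter the test in these models and in that with no filter, and are among the members counted for time, Cnn1 in CTRL, Ankrd1 in PIO and both over all treatments. The 3 for PIO over both backgrounds at 6 h are Tagln, Amotl2 and Lats2, without PIO+GM replicate 1 at 6 h. A group of 2 libraries then shares the estimate of spread of the other groups. With each library left out, PIO over both backgrounds called 6.88% to 30.6% of all genes at 6 h and 1.1% to 4% at 24 h.

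Replicate numbers are shared between groups in the labels, without a shared litter, batch or day being named. After group means were removed, libraries with the same number had a mean correlation of 0.113 at 6 h (-0.305 to 0.684, over 0.1 in 9 of 18 pairs) and 0.38 at 24 h (-0.025 to 0.723, 15 of 18). Libraries with different numbers had means of -0.055 and -0.182 (over 0.1 in 13 and 10 of 36 pairs). Same-numbered libraries were thus more alike, most at 24 h, but not over 0.1 in every pair, and they were not treated as paired. With a replicate block, PIO against CTRL and PIO+GM against GM at 24 h called 1 member each (Acta2, adjusted p = 0.021 and 0.036), time in GM called 2 (Ccn1 and Myl9), and 13 of 19 counts were identical. For PIO over both backgrounds edgeR with the block also called Acta2 at 6 h (adjusted p = 0.044) and Myl9 at 24 h (adjusted p = 0.037). For time in PIO it also called Ccn1 (adjusted p = 0.032) and Acta2 (adjusted p = 0.040). With the block and the GC trend removed, the counts for PIO against CTRL and PIO+GM against GM at 24 h and for time in GM were 1, 1 and 2 again. PIO over both backgrounds at 6 h called 0 there, and time in PIO again called Ccn1 (adjusted p = 0.0091) and Acta2 (adjusted p = 0.041) by edgeR. Under PIO over both backgrounds the block called 27% of all genes at 6 h and 7.3% at 24 h, against 16.1% and 2.79% as reported. Beside these shares it called 6 of the other YAP targets lower and 1 higher at 6 h and 4 lower at 24 h. Of the Hippo and TEAD genes it called 6 lower and 4 higher at 6 h.

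Depth limits Acta2, Tagln, Ankrd1 and Cnn1 most, and 3 libraries a group, each a pool of explants, limit every comparison.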

Other observations

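Cnn1, calponin, was too low for the test, and its counts were looked at after the other values had been seen. At 6 h the CTRL libraries held 6, 10 and 6 counts, against 2, 1 and 1 in GM and 3, 1 and 2 in PIO, while PIO+GM held 10, 4 and 3. At 24 h the CTRL libraries held 0, 0 and 2 counts and the other groups 0 to 8. With all libraries in the model and the filter on low counts, no comparison was tested on these counts.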
